A study of Mus musculus with 8 samples.

Results

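The genes described here are 6 members of the pathway by which cells read their supply of sugar phosphates: the sensors Mlxip (MondoA) and Mlxipl (ChREBP), their shared partner Mlx, and the alpha-arrestins Txnip, Arrdc4 and Arrdc3. They were taken by symbol from the deposited table of 56748 genes, where each of the 6 matched 1 row. Of these, 5 had a value above 0 in at least 1 library and 4 passed the filter for testing, which asked for at least 1 FPKM (fragments counted on a gene, scaled by its length and by the size of the library) in at least 2 libraries. The members were measured by poly(A) RNA sequencing in 8 libraries of 32D, a mouse myeloid line that depends on interleukin-3. All 8 came from cells that had been transduced with either murine Jak2WT or murine Jak2V617F, the activating mutation of myeloproliferative neoplasms. In each background 2 clones had intact glucose transporters (GLUT1/3 WT) and 2 were CRISPR-Cas9 double knockouts of Slc2a1 and Slc2a3 (GLUT1/3 dKO), which gave 4 groups. Each library was 1 clone grown from a single cell, so a group stands for 2 clones, numbered 1 and 3. Before RNA isolation all clones were kept for 24 h with interleukin-3 (2 ng/ml) and serum in a medium that held 5 mM glucose and 1 mM glutamine.

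MondoA and ChREBP are large basic helix-loop-helix factors that form dimers with Mlx and enter the nucleus to activate genes when hexose phosphates, above all glucose phosphate, build up in the cell. Txnip is their best known target. Its protein binds thioredoxin and takes GLUT1 off the cell surface, so that a cell rich in glucose phosphate lowers its own uptake, and Arrdc4 is a second target with a similar effect on uptake. MondoA is the form of most tissues, whereas ChREBP is best known in liver and fat.

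Members were located on mm39 (GRCm39) as the deposited table gave them. Txnip (ENSMUSG00000038393) spans chr3:96465273-96469199 (forward strand). Arrdc4 (ENSMUSG00000042659) spans chr7:68386743-68398989 (reverse strand), and Arrdc3 (ENSMUSG00000074794) chr13:81031503-81044161 (forward strand). Mlx (ENSMUSG00000017801) spans chr11:100978103-100983033 (forward strand). Mlxip (ENSMUSG00000038342) and Mlxipl (ENSMUSG00000005373) share a chromosome and strand, at chr5:123532861-123595995 and chr5:135118744-135167236 (forward strand). Values are sums over the exons of a gene, and in the GENCODE vM39 annotation the canonical transcript has 8 exons for Txnip, Arrdc4, Arrdc3 and Mlx and 17 for Mlxip and Mlxipl.

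The start regions of 3 members are shown because they hold the letters by which Mlx dimers are known to bind, a CACGTG E-box or a pair of E-box-like half-sites that together form a carbohydrate response element. The sequences are RefSeq windows from 250 bases before to 50 after the transcript start, read 5′ to 3′ on the strand of the gene, and each matched GRCm39 at 1 place. Txnip lies at chr3:96465023-96465322, Arrdc4 at chr7:68398937-68399236 on the reverse strand, and Mlx at chr11:100977866-100978165. Capitals mark the half-site pair of Txnip and the E-box of Arrdc4 and of Mlx.
Txnip: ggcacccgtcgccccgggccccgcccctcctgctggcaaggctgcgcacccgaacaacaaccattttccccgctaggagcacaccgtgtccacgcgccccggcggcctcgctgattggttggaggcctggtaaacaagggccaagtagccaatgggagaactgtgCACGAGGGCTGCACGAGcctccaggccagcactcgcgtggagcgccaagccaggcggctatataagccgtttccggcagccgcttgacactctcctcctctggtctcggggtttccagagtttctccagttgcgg
Arrdc4: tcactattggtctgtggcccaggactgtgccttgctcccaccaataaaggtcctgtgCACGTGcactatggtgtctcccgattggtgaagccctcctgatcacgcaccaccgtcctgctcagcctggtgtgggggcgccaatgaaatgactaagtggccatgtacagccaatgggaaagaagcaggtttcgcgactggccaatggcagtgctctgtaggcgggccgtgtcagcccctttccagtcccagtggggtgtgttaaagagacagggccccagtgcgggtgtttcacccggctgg
Mlx: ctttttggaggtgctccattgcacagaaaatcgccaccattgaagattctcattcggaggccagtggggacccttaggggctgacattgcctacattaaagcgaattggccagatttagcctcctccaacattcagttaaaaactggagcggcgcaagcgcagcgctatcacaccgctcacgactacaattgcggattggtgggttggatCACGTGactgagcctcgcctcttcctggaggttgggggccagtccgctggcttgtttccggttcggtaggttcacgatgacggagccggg

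The capitals of Txnip were the only half-site pair in the windows of the 6 members. It was searched as CACGNG in either orientation, then 5 bases, then CACGNG in either orientation, and began 85 bases before the start. Such a pair was present in 27 of 32544 distinct RefSeq windows of this length (0.083%). The E-box CACGTG, which also fulfils the half-site letters, began 193 bases before the start of Arrdc4 and 40 before that of Mlx, and was found in 7.17% of all windows. It was present in 1 of the 2 windows of Mlxipl as well, and in none of the 3 windows of Arrdc3 or the window of Mlxip. CCAAT, searched on both strands, occurred 6 times in the Arrdc4 window and 2 times in that of Txnip, and at least once in 37.4% of all windows. The forkhead motif GTAAACA occurred once, in the window of Txnip, against 3.66% of windows.

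Reads on genes, recovered from the FPKM values, ranged from 16846011 to 48884329 per library, and 10773 to 11190 genes per library reached 1 FPKM. The edited gene Slc2a1 fell from between 44.7 and 64.0 FPKM in the GLUT1/3 WT clones to between 9.17 and 17.3 FPKM in the dKO clones (adjusted p = 0.000872 in Jak2WT and 0.000444 in Jak2V617F). Slc2a3 ranged from 91.9 to 198.5 FPKM in the GLUT1/3 WT clones. In the dKO clones it ranged from 16.0 to 49.5 FPKM, and its highest value there was in Jak2WT dKO clone 3. It passed the test in Jak2V617F (adjusted p = 0.0115, 0.0602 without GLUT1/3 WT clone 1, 0.0521 without dKO clone 3 and 0.0557 with no filter on low values) and not in Jak2WT (adjusted p = 0.0612, 0.0358 without dKO clone 3, 0.0199 with voom on recovered reads and just under the threshold without Jak2V617F dKO clone 1). Jak2 reads, which sum the endogenous gene and the transgene, were lower in Jak2V617F GLUT1/3 WT than in Jak2WT GLUT1/3 WT (139 to 140 against 243 to 258 FPKM, difference −0.84 on the log2(FPKM + 1) scale, adjusted p = 0.00120). Of 8 myeloid markers, Prtn3, Il3ra and Csf2rb were expressed, whereas Mpo, Elane, Ctsg, Cd34 and Kit stayed below 1 FPKM in every library, and none of 7 lymphoid markers reached 1 FPKM. The 8 erythroid markers summed to 90.1 and 108 FPKM in Jak2WT GLUT1/3 WT, 243 and 287 in Jak2WT dKO, 548 and 903 in Jak2V617F GLUT1/3 WT, and 2575 and 4671 in Jak2V617F dKO. The haemoglobin genes Hba-a1, Hbb-bs and Hbb-bt made up most of the rise in this sum. Klf1, an erythroid factor, had group means of 12.4 and 14.3 FPKM in Jak2WT GLUT1/3 WT and dKO. In Jak2V617F GLUT1/3 WT and dKO they were 13.4 and 21.0 FPKM. In Jak2V617F dKO 5 of the 6 tested erythroid markers were called higher, Klf1 among them, and 1, Gata1, lower. Over all genes 13.7% were called higher and 16.2% lower there. The erythroid factor Gata1 took another course, with group means of 29.9 and 26.6 FPKM in Jak2WT GLUT1/3 WT and dKO and of 53.4 and 37.6 FPKM in Jak2V617F GLUT1/3 WT and dKO (−0.50 for the latter pair, adjusted p = 0.0246, a call lost in 4 of 18 alternatives, among them −0.37 without Jak2V617F GLUT1/3 WT clone 1 and −0.37 without dKO clone 3), and Alas2, a haem synthesis enzyme, stayed below 1 FPKM. The myeloid markers summed to 178 and 204 FPKM in Jak2WT GLUT1/3 WT, 128 and 161 in Jak2WT dKO, 146 and 149 in Jak2V617F GLUT1/3 WT, and 67.3 and 69.2 in Jak2V617F dKO. Most of that sum was Csf2rb, a receptor subunit for interleukin-3 with a close paralog, Csf2rb2, that could share its reads, which was lower in Jak2V617F dKO than in Jak2V617F GLUT1/3 WT (−1.29, adjusted p = 0.00126).

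Txnip was the most abundant member in both GLUT1/3 WT groups, whereas Mlx stood above it in Jak2WT dKO and at about its level in Jak2V617F dKO (18.0 against 17.8 FPKM). Txnip read 54.4 and 62.0 FPKM in the 2 clones of Jak2WT GLUT1/3 WT, 10.3 and 16.2 FPKM in Jak2WT dKO, 24.6 and 29.2 FPKM in Jak2V617F GLUT1/3 WT, and 17.6 and 17.9 FPKM in Jak2V617F dKO. No 2 groups overlapped. The order from high to low was thus Jak2WT GLUT1/3 WT, Jak2V617F GLUT1/3 WT, Jak2V617F dKO and Jak2WT dKO, with group means of 58.2 ± 5.38, 26.9 ± 3.24, 17.8 ± 0.235 and 13.2 ± 4.20 FPKM (SD, n = 2). Between the neighbours of this order only the step from Jak2WT GLUT1/3 WT to Jak2V617F GLUT1/3 WT passed the test. The least expressed clone had 917 reads on Txnip. In Jak2V617F dKO, with 1910 and 1412 reads, the clones lay closer together than in any other group. In RNA of whole clones, fewer expressing cells and less RNA per cell cannot be told apart.

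**Figure D1:**
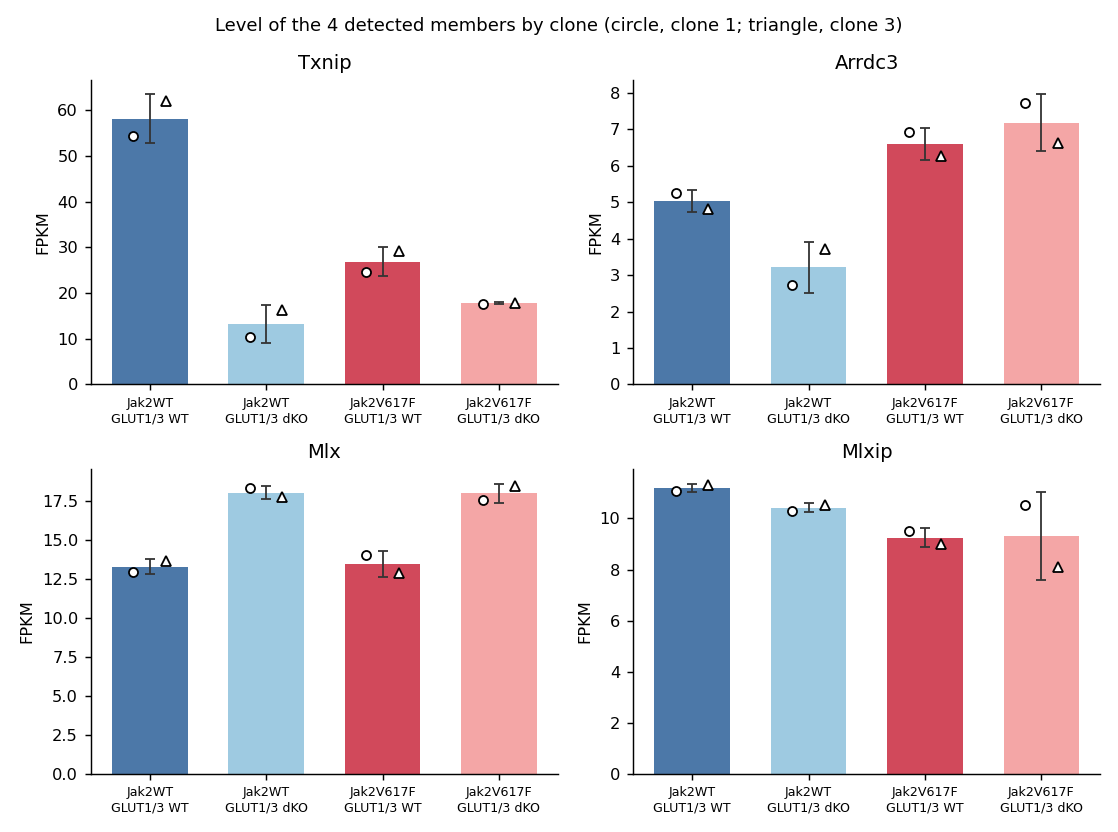
FPKM (vertical axes, from 0) of Txnip, Arrdc3, Mlx and Mlxip in the 4 groups; bars are means of 2 clones, error bars SD, circles clone 1 and triangles clone 3. Txnip stands at 54.4 and 62.0 FPKM in Jak2WT GLUT1/3 WT and at no more than 29.2 FPKM in any other library, and Mlx is above 17 FPKM in all 4 dKO libraries and below 15 in the others.

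Loss of GLUT1/3 in the Jak2WT background lowered Txnip in both clones. The difference was −2.08 ± 0.19 on the log2(FPKM + 1) scale (SE, 95% interval −2.53 to −1.64), or 0.236 times the GLUT1/3 WT level in FPKM + 1 (limma, adjusted p = 0.00259). It kept its call under all 18 alternatives, with values from −2.39 to −1.78. The Jak2WT dKO clone with the higher Slc2a3, clone 3 (49.5 against 16.0 FPKM), had the higher Txnip, whereas in Jak2V617F dKO the clone with the higher Slc2a3, clone 1 (48.2 against 23.8 FPKM), had the slightly lower Txnip. In this comparison 3 of the 4 tested members passed the threshold, Mlx higher and Txnip and Arrdc3 lower. Over all 11818 genes tested 13.7% did, 7.62% higher and 6.06% lower.

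In the Jak2V617F background the difference in Txnip was −0.57 ± 0.19 (95% interval −1.01 to −0.12), the 2 edited clones lying under the 2 unedited ones, and did not pass the threshold (adjusted p = 0.0595, range over the alternatives 0.0167 to 0.214). At the same difference it passed when only the 2 groups compared were fitted (adjusted p = 0.0322), with the clone number as a replicate block (0.0278), and without Jak2WT dKO clone 1 (0.0168) or clone 3 (0.0167), which enter only the shared estimate of the spread. Mlx alone of the 4 tested members was called here, higher. The background was 29.9% of all genes tested, 13.7% higher and 16.2% lower.

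The 2 backgrounds differed in how far Txnip moved. The dKO effect in Jak2V617F minus that in Jak2WT was 1.51 ± 0.27 (95% interval 0.88 to 2.14, adjusted p = 0.0195), the only one among the 4 tested members to pass at these settings, against 10.6% of all genes (4.72% higher and 5.91% lower). The call was lost without Jak2WT GLUT1/3 WT clone 1 (1.61, adjusted p = 0.0669) or clone 3 (1.42, 0.0822), without Jak2V617F GLUT1/3 WT clone 1 (1.40, 0.0635), and with no filter on low values (0.0769). The range over all alternatives was 0.00426 to 0.0822.

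Txnip also differed between the backgrounds before any transporter was removed. In GLUT1/3 WT clones it was lower in Jak2V617F than in Jak2WT, with a difference of −1.09 ± 0.19 (95% interval −1.53 to −0.64, adjusted p = 0.00610), 0.471 times in FPKM + 1, and this call held under all 18 alternatives (−1.24 to −0.97). It was the only one of the 4 tested members called, against 30.3% of all genes, 15.3% higher and 14.9% lower. In these Jak2V617F clones Slc2a1 read 53.0 to 64.0 FPKM and Slc2a3 166 to 198 FPKM, beside 44.7 to 48.4 and 91.9 to 97.7 FPKM in Jak2WT, and neither gene was called, although Slc2a3 passed when only the 2 groups compared were fitted (0.93, adjusted p = 0.00547). Among dKO clones the order turned, with Txnip higher in Jak2V617F by 0.43 ± 0.19 (95% interval −0.02 to 0.87), which did not pass (adjusted p = 0.171, range 0.0349 to 0.660). It rested on which Jak2WT dKO clone was kept, being 0.12 without clone 1 (adjusted p = 0.660) and 0.73, which passed, without clone 3 (0.0349). Of the members, Arrdc3 alone was called among dKO clones, against 17.1% of all genes, 7.12% higher and 9.96% lower. The summed erythroid and myeloid markers also moved with the groups, in another order than Txnip, and their part in these differences was not tested.

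**Figure D2:**
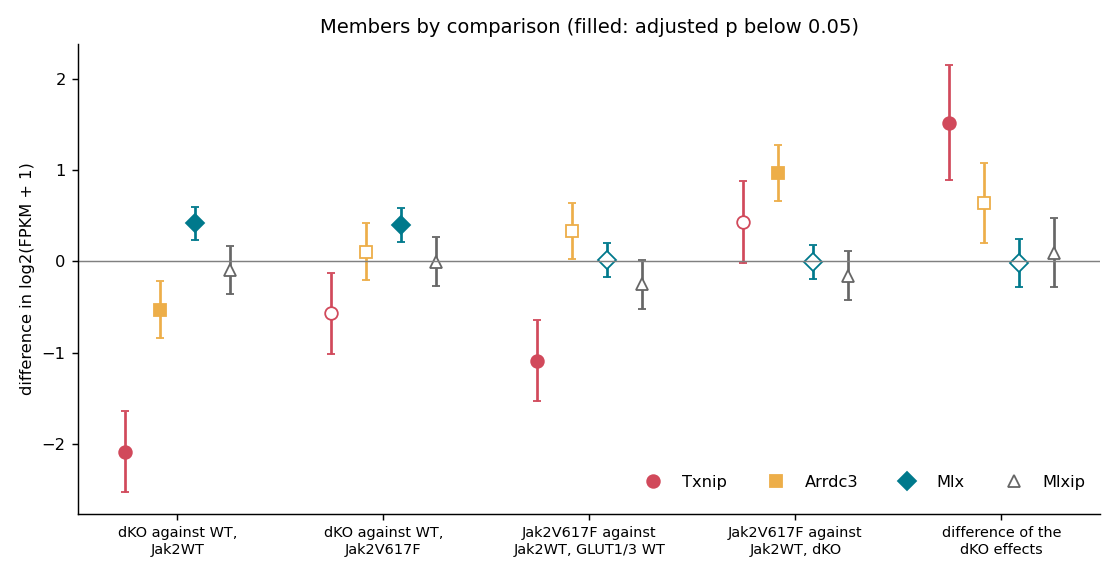
Differences in log2(FPKM + 1) (vertical axis) of the 4 tested members in the 4 comparisons and in the difference between the dKO effects; symbols are estimates, bars 95% intervals, and filled symbols have an adjusted p below 0.05. Txnip lies at −2.08 in Jak2WT and −0.57 in Jak2V617F, while Mlx lies at 0.41 and 0.40 and Mlxip between −0.25 and 0.09.

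Arrdc4, the other arrestin target of MondoA, gave 0 reads in all 8 libraries. With 3 reads taken as the limit that a count of 0 allows, its level was below 0.0151 to 0.0428 FPKM depending on the depth of the library, for counting error only. Its E-box and its 6 CCAAT letters, shown above, were thus in the start region of a gene without detectable RNA in any group. Within 500 kb of Arrdc4 the table listed 17 other genes, of which 4 had any read and 0 reached 1 FPKM in 2 libraries. Around Txnip the same window held 80 genes, 49 with reads and 18 at that level.

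Arrdc3, an alpha-arrestin that recruits ubiquitin ligases to receptors, did not follow Txnip. It read 5.26 and 4.82 FPKM in Jak2WT GLUT1/3 WT, 2.72 and 3.70 FPKM in Jak2WT dKO, 6.92 and 6.28 FPKM in Jak2V617F GLUT1/3 WT, and 7.74 and 6.64 FPKM in Jak2V617F dKO. The Jak2WT dKO clones were the lowest and the Jak2V617F clones of both kinds the highest, with an overlap only between the 2 Jak2V617F groups. The difference in Jak2WT dKO was −0.53 ± 0.13 (adjusted p = 0.0406). This call did not hold in 9 of 18 alternatives (adjusted p from 0.0126 to 0.198 over all of them). It was lost without any one of the 4 Jak2WT clones, at −0.48 without GLUT1/3 WT clone 1, −0.58 without GLUT1/3 WT clone 3, −0.36 without dKO clone 1 and −0.70 without dKO clone 3, and at an adjusted p of 0.0558 or 0.0550 without Jak2V617F GLUT1/3 WT clone 1 or 3. In Jak2V617F the dKO difference was 0.11 (95% interval −0.20 to 0.41, adjusted p = 0.581). Among dKO clones Arrdc3 was higher in Jak2V617F by 0.97 ± 0.13 on the log2(FPKM + 1) scale (adjusted p = 0.00434), with group means of 7.19 and 3.21 FPKM, and this held under every alternative. Among GLUT1/3 WT clones the difference was 0.33 (adjusted p = 0.0974), and the difference between the dKO effects was 0.63 (95% interval 0.20 to 1.07, adjusted p = 0.0716). The first of these passed when only the 2 groups compared were fitted (adjusted p = 0.0436). The second passed with libraries scaled to the same total (0.80, adjusted p = 0.0416), which shifted the median of all genes by 0.16, and with voom on the recovered reads (0.93, 0.0177).

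No other alpha-arrestin was called. Arrdc1 ranged from 9.36 to 12.9 FPKM and Arrdc2 from 3.33 to 4.23 FPKM over the 8 libraries, and neither was called in any of the 4 comparisons or in the difference between the dKO effects. Arrdc5 did not exceed 0.0546 FPKM. Of 6 family members listed, 4 were tested, so that the 2 called in Jak2WT dKO, beside 13.7% of all genes, were Txnip and Arrdc3, the latter with the 9 lost calls given above.

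Mlx rose with loss of GLUT1/3 in both backgrounds by nearly the same amount. It read 13.0 and 13.6 FPKM in Jak2WT GLUT1/3 WT and 18.3 and 17.7 FPKM in Jak2WT dKO. In Jak2V617F it read 14.0 and 12.9 FPKM with intact transporters and 17.6 and 18.4 FPKM in the dKO clones. All 4 dKO libraries were above all 4 GLUT1/3 WT libraries, and within either kind the backgrounds overlapped. The differences were 0.41 ± 0.08 in Jak2WT (1.33 times in FPKM + 1, adjusted p = 0.0188) and 0.40 ± 0.08 in Jak2V617F (1.32 times, adjusted p = 0.0103). The difference between them was −0.02 with a 95% interval of −0.28 to 0.24. The Jak2V617F call was lost when only the 2 groups compared were fitted (0.40, adjusted p = 0.0575). In Jak2WT the call was lost without any one of the 4 clones compared, at 0.38 without GLUT1/3 WT clone 1, 0.45 without GLUT1/3 WT clone 3, 0.39 without dKO clone 1 and 0.44 without dKO clone 3 (adjusted p 0.0801 to 0.134). Between the backgrounds Mlx differed by 0.02 (95% interval −0.17 to 0.20) among GLUT1/3 WT clones and by −0.0032 (−0.19 to 0.18) among dKO clones.

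Mlxip, which encodes MondoA itself, was expressed in every library and was called in none of the comparisons at the settings used throughout. It read 11.1 and 11.3 FPKM in Jak2WT GLUT1/3 WT, 10.3 and 10.5 FPKM in Jak2WT dKO, 9.51 and 9.001 FPKM in Jak2V617F GLUT1/3 WT, and 10.5 and 8.10 FPKM in Jak2V617F dKO. The widest gap between clones was in Jak2V617F dKO, whose 2 clones enclosed both clones of Jak2V617F GLUT1/3 WT. The dKO differences were −0.10 in Jak2WT (95% interval −0.36 to 0.17, adjusted p = 0.612) and −0.0022 in Jak2V617F (−0.27 to 0.27, adjusted p = 0.993). Among GLUT1/3 WT clones Mlxip was lower in both Jak2V617F clones, the difference being −0.25 (95% interval −0.52 to 0.02, adjusted p = 0.135). That difference depended on the scaling. It was −0.39 and passed with libraries scaled to the same total (adjusted p = 0.0322), which shifted the median of all genes by −0.13, and was −0.39 with voom on the recovered reads (0.0258). It also passed, at −0.25, without Jak2V617F dKO clone 1 or clone 3 (adjusted p = 0.0343 and 0.0342), and the range over the alternatives was 0.0258 to 0.341.

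Mlxipl, the ChREBP gene, had 2 reads in all, both in Jak2V617F dKO clone 1 (0.0104 FPKM), and 0 in the other 7 libraries. Of the 2 sensor genes, the one with a usable level in these cells was therefore Mlxip, at 8.10 to 11.3 FPKM, while Mlx stood at 12.9 to 18.4 FPKM on the same scale per length.

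The enzymes that make and share out hexose phosphates, the signal MondoA reads, were lower in both dKO groups in part. Of 10 listed, 8 were tested, and 4 fell in each background (Hk1, Hk2, Gpi1 and Pgm1), with 0 higher, where 6.06% of all genes were called lower in Jak2WT and 16.2% in Jak2V617F. The hexokinase Hk3, also listed, was not called for GLUT1/3 loss in either background. Its group means were 163 and 160 FPKM in Jak2WT GLUT1/3 WT and dKO. In Jak2V617F GLUT1/3 WT and dKO they were 32.0 and 39.3 FPKM, the 2 dKO clones reading 14.0 and 64.7 FPKM. The median of the 8 was −0.30 in Jak2WT and −0.29 in Jak2V617F, beside 0.01 and −0.02 over all genes. Pgm1, which interconverts glucose phosphates, read 70.7 and 71.9 FPKM in Jak2WT GLUT1/3 WT and 35.6 and 33.2 FPKM in Jak2WT dKO, a difference of −1.03 ± 0.10 (adjusted p = 0.00282). In Jak2V617F it went from 82.2 and 73.7 FPKM to 21.5 and 24.6 FPKM, or −1.72 ± 0.10 (adjusted p = 0.000354). The isomerase Gpi1 fell too (−0.52 in Jak2WT and −1.24 in Jak2V617F, adjusted p = 0.0235 and 0.000550), as did the hexokinase Hk2 (−0.46 and −1.17, adjusted p = 0.0279 and 0.000550). Thus Txnip fell further in Jak2WT, whereas these 3 enzymes fell further in Jak2V617F, and the difference between the dKO effects was −0.69 for Pgm1, −0.72 for Gpi1 and −0.71 for Hk2 (adjusted p = 0.0266, 0.0314 and 0.0270). These 3 calls were lost without any one of the 4 Jak2WT clones or without Jak2V617F GLUT1/3 WT clone 1, that of Hk2 also without Jak2V617F GLUT1/3 WT clone 3 and that of Gpi1 without Jak2V617F dKO clone 3, at −0.76 to −0.60 and adjusted p of 0.0524 to 0.110. All 3 were also lost with no filter on low values (0.0652 to 0.0871), and that of Hk2 with libraries scaled to the same total (−0.52, 0.0657). In Jak2WT the calls of Hk1 (−0.45, adjusted p = 0.0400), Hk2 and Gpi1 were lost without any one of the 4 clones compared, at adjusted p of 0.0853 to 0.178, with differences of −0.52 to −0.40, and with no filter (0.0703 to 0.1001), that of Hk1 also with the replicate block (0.0620) and without the trend in the empirical Bayes step (0.0540). In Jak2V617F that of Hk1 (−0.52, adjusted p = 0.0134) was lost without GLUT1/3 WT clone 1 (−0.38) or dKO clone 1 (−0.43) and when only the 2 groups compared were fitted (0.0592).

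Other genes known to respond to MondoA or ChREBP moved in both directions. Of 16 listed, 11 were tested. In Jak2WT dKO 3 were lower (Klf10, Scd2 and Hk2) and 0 higher, with a median of −0.30, where 6.06% of all genes were called lower and 7.62% higher. In Jak2V617F dKO 3 were lower and 2 higher, with a median of 0.05, where 16.2% and 13.7% of all genes were. Klf10, a zinc finger repressor, moved in opposite directions in the 2 backgrounds. It read 3.46 and 4.39 FPKM in Jak2WT GLUT1/3 WT, 1.73 and 1.71 FPKM in Jak2WT dKO, 1.07 and 0.89 FPKM in Jak2V617F GLUT1/3 WT, and 4.38 and 2.68 FPKM in Jak2V617F dKO. It was thus lower after GLUT1/3 loss in Jak2WT (−0.85 ± 0.19, adjusted p = 0.0291) and higher after it in Jak2V617F (1.17 ± 0.19, adjusted p = 0.00451), and the difference between the dKO effects was 2.02 ± 0.27 (adjusted p = 0.0116). The difference of Klf10 in Jak2V617F was 1.95 and that between the dKO effects 3.15 with voom on the recovered reads. The Jak2WT call was lost with no filter (adjusted p = 0.106) and without any one of the 4 clones compared (−0.99 to −0.71, adjusted p 0.0954 to 0.161), and that of the difference without Jak2WT GLUT1/3 WT clone 3 (1.88, adjusted p = 0.0601) or Jak2WT dKO clone 1 (2.02, 0.0535).

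The desaturase gene Scd2 fell in both backgrounds, from 347 and 328 FPKM to 121 and 124 FPKM in Jak2WT and from 150 and 136 FPKM to 53.2 and 59.4 FPKM in Jak2V617F. The differences were −1.46 ± 0.09 and −1.33 ± 0.09 (adjusted p = 0.000670 and 0.000383). Fasn, fatty acid synthase, was higher in Jak2V617F dKO by 0.75 ± 0.12 (adjusted p = 0.00407). With intact transporters the list was mostly lower in Jak2V617F than in Jak2WT, as Txnip was, with 7 of 11 lower and 1 higher and a median of −0.51 beside 0.01 over all genes, of which 14.9% were called lower and 15.3% higher. The largest of these were Klf10 (−1.31, adjusted p = 0.00311), Scd2 (−1.24, adjusted p = 0.000357) and Elovl6, an elongase (−0.99, adjusted p = 0.00614). Over the 18 alternatives the difference of Klf10 ranged from −2.06 to −1.17 and kept its call. Scaling each library to the same summed FPKM shifted the median of all genes by −0.13 in this comparison, in the direction of the list.

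**Figure D3:**
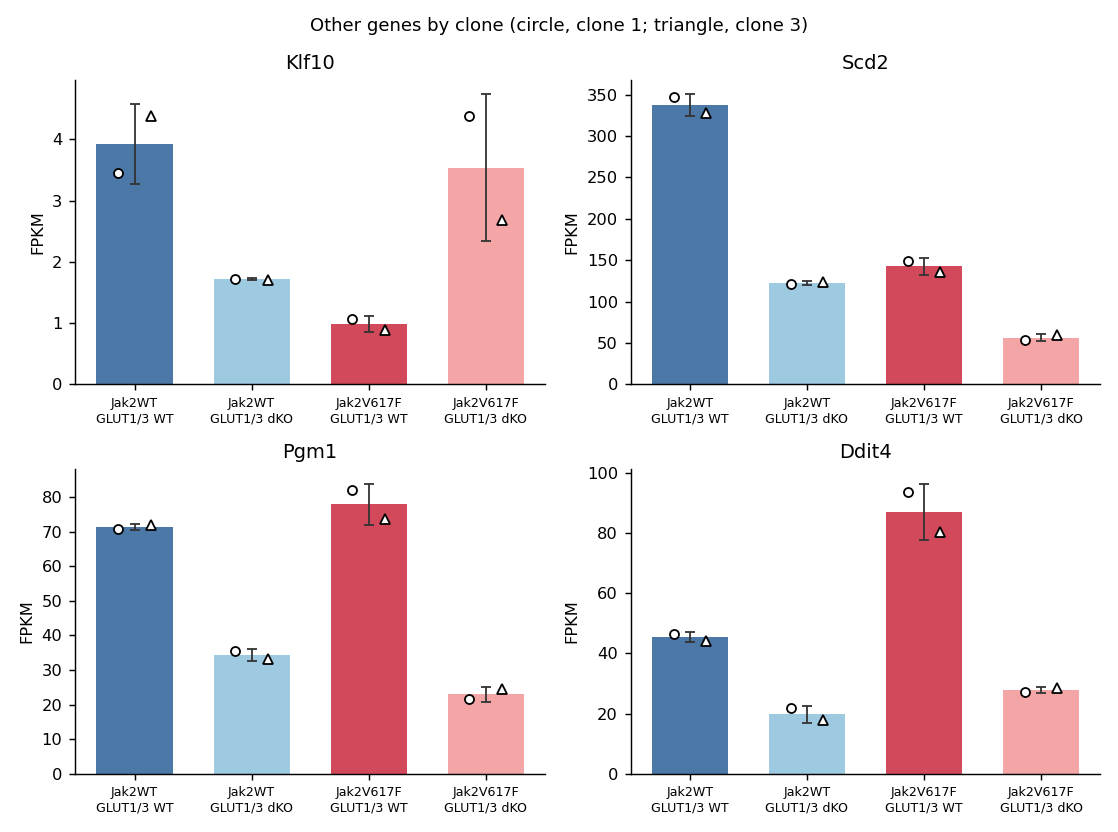
FPKM (vertical axes, from 0) of Klf10, Scd2, Pgm1 and Ddit4 in the 4 groups, drawn as for the members. Klf10 is lower in Jak2WT dKO (1.73 and 1.71 FPKM) and higher in Jak2V617F dKO (4.38 and 2.68 FPKM) than in the matching GLUT1/3 WT clones, while the other 3 genes are lower in both dKO groups.

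The wider network of Max-like dimer partners, to which Mlx belongs, is described only beside it. Of 10 listed genes 9 were tested; 2 were lower in Jak2WT dKO (Mxi1 and Mycn), and 5 lower and 1 higher in Jak2V617F dKO. The medians were −0.28 and −0.45, beside 0.01 and −0.02 over all genes, of which 6.06% were called lower in Jak2WT and 16.2% lower and 13.7% higher in Jak2V617F. Mxi1, a repressor of the Myc network, was lower in both (−0.79 and −0.50, adjusted p = 0.00441 and 0.00586), and so was Mycn (−0.60 and −1.10, adjusted p = 0.0323 and 0.00182). In Jak2WT the call of Mycn was lost without any one of the 4 clones compared (−0.70 to −0.50, adjusted p 0.0919 to 0.184) or with no filter (0.0980), and that of Mxi1 without GLUT1/3 WT clone 1 (−0.74, 0.0510). The one riser was Mxd3, a repressor that binds Max, from 0.89 and 0.81 FPKM to 3.59 and 3.10 FPKM in Jak2V617F (1.23 ± 0.12, adjusted p = 0.000860). It read 2.91 and 2.90 FPKM in Jak2WT GLUT1/3 WT and 2.50 and 1.97 FPKM in Jak2WT dKO, and the difference between the dKO effects was 1.51 ± 0.18 (adjusted p = 0.00881), lost without Jak2WT GLUT1/3 WT clone 1 (1.51, 0.0503) or clone 3 (1.51, 0.0583). With voom on the recovered reads these differences of Mxd3 were 2.08 and 2.57, and with a pseudocount of 0.1 the first was 1.86.

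Of 9 genes of the thioredoxin system, which the Txnip protein binds through thioredoxin, 0 were called in Jak2WT dKO (median 0.06, 13.7% of all genes called) and 3 in Jak2V617F dKO (median −0.06), near the 29.9% of all genes called there. In the latter 1 was higher, thioredoxin reductase 1 (Txnrd1, 0.44, adjusted p = 0.0101, 0.0525 when only the 2 groups compared were fitted), and 2 were lower, the larger being the mitochondrial peroxiredoxin Prdx3 (−0.54, adjusted p = 0.00527). Txn1, thioredoxin itself, lay between 150 and 183 FPKM in all libraries, against 10.3 to 62.0 FPKM for Txnip.

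The Nedd4-type ubiquitin ligases that bind alpha-arrestins, Itch among them as a known ligase of Txnip, showed 0 of 7 calls in Jak2WT dKO, with a median of −0.14, where 6.06% of all genes were called lower. In Jak2V617F dKO 6 of 7 were lower, with a median of −0.42, where 16.2% of all genes were. For the difference between the dKO effects 1 of the 7 was called, Itch (−0.39, adjusted p = 0.0467; median of the 7 −0.32, beside −0.04 over all genes and 5.91% called lower), so a difference between the backgrounds was not shown for the other 6. The call of Itch was lost in 14 of 17 alternatives, at −0.21 with libraries scaled to the same total (0.196) and −0.26 with voom (0.122), and without any one of the 8 libraries. Itch fell from 18.1 and 17.6 FPKM to 12.0 and 12.1 FPKM (−0.53 ± 0.07, adjusted p = 0.00199). Smurf1 fell as well (−0.53, adjusted p = 0.0219), a call that was lost without Jak2V617F GLUT1/3 WT clone 1 (−0.44, 0.108) or dKO clone 3 (−0.35, 0.0692), with no filter (0.0718) and when only the 2 groups compared were fitted (0.0697). The subunits of AMPK, the energy-sensing kinase that marks Txnip for degradation, gave 0 calls of 4 tested in Jak2WT dKO (median −0.10, 13.7% of all genes called) and 2 lower in Jak2V617F dKO (median −0.41, 16.2% called lower). For the difference between the dKO effects 1 of the 4, Prkab2, was called (−0.69, adjusted p = 0.0454), where 5.91% of all genes were called lower. This call too was lost in 14 of 17 alternatives, among them without any one of the 8 libraries (−0.83 to −0.55, adjusted p up to 0.155). The 2 were the catalytic Prkaa1 (−0.61 ± 0.09, adjusted p = 0.00370) and the regulatory Prkab2 (−0.75 ± 0.12, adjusted p = 0.00428). Prkab2 had been higher in Jak2V617F than in Jak2WT with intact transporters (0.70, adjusted p = 0.00565).

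Of 8 listed partners and stress genes around Txnip, 6 were tested, with 2 lower in Jak2WT dKO (median −0.28, 6.06% of all genes called lower) and 4 lower in Jak2V617F dKO (median −0.34, 16.2%). Ddit4 (REDD1), an inhibitor of mTORC1 whose protein binds Txnip, went from 46.5 and 44.2 FPKM to 21.7 and 17.8 FPKM in Jak2WT and from 93.6 and 80.3 FPKM to 27.2 and 28.6 FPKM in Jak2V617F. The differences were −1.16 ± 0.12 and −1.60 ± 0.12 (adjusted p = 0.00370 and 0.000383). Unlike Txnip, Ddit4 was higher in Jak2V617F than in Jak2WT with intact transporters (0.92, adjusted p = 0.00200). Foxo3, a forkhead factor, was lower in both (−0.54 and −0.39, adjusted p = 0.00787 and 0.00948), the Jak2WT call being lost without any one of the 4 clones compared (−0.55 to −0.54, adjusted p 0.0552 to 0.0694) and the Jak2V617F call when only the 2 groups compared were fitted (0.0593). Foxo1 was listed at 0 in all libraries, and Nlrp3, the inflammasome sensor to which Txnip protein can bind, did not exceed 0.15 FPKM.

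**Figure D4:**
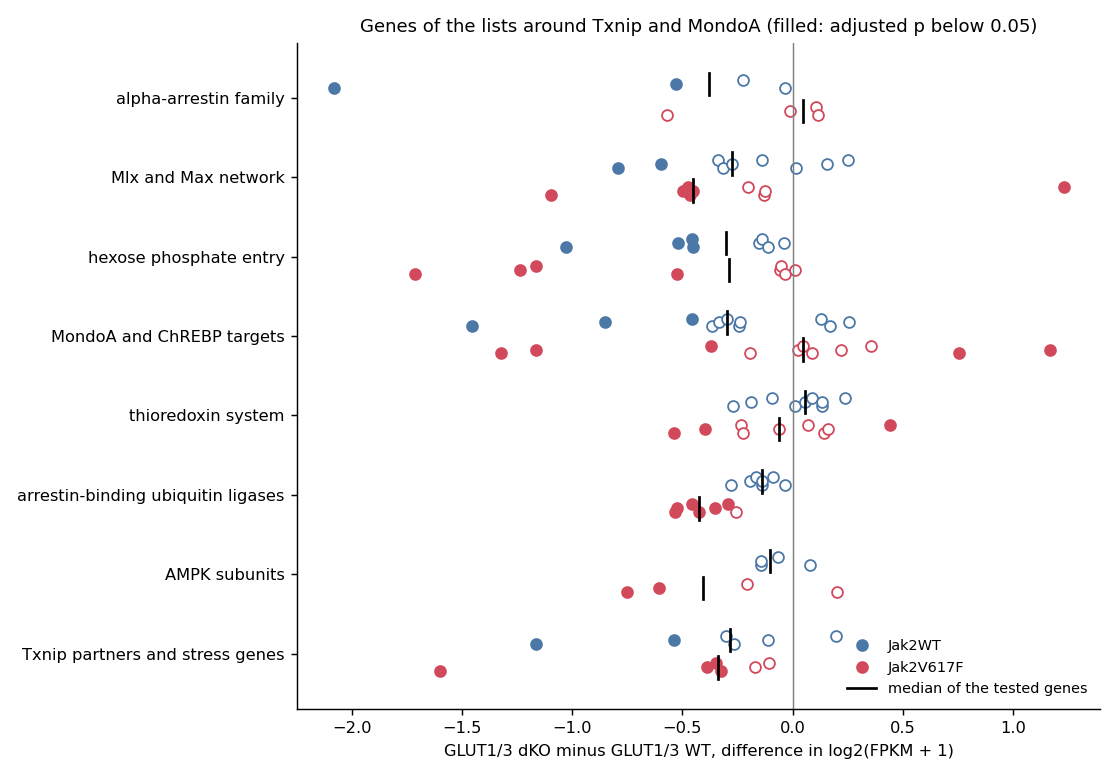
Difference between GLUT1/3 dKO and GLUT1/3 WT in log2(FPKM + 1) (horizontal axis) for every tested gene of 8 lists, in Jak2WT (blue) and Jak2V617F (red); filled points have an adjusted p below 0.05 and black bars are medians of the tested genes. Ubiquitin ligases show 0 filled points in Jak2WT and 6 in Jak2V617F, and the hexose phosphate enzymes 4 in each.

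Among the 11818 genes tested, the 5 whose log2(FPKM + 1) over the 8 libraries was most like that of Txnip included Arhgap19, which codes for a GTPase-activating protein (Pearson r = 0.993), Tnrc6b, a partner of Argonaute (0.983), Harbi1 (0.972) and Safb (0.968). Those most opposed were Twsg1, a secreted binder of bone morphogenetic proteins (−0.995), the actin-binding Cotl1 (−0.986), Btbd19 (−0.984), the myosin light chain Myl6 (−0.982) and Nmi (−0.969). The 8 points are 4 groups of 2 clones each, so a likeness reflects mostly the 4 group levels. By rank correlation Arhgap19 and Tnrc6b followed Txnip exactly (coefficient 1), and Harbi1 and Safb fell to place 123. None of the other members came near: r was −0.843 for Mlx, 0.375 for Mlxip and 0.277 for Arrdc3, and 0.783 and 0.658 for the edited genes Slc2a1 and Slc2a3.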

How the data were processed

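Poly(A) RNA of 8 32D clones was sequenced, 2 clones for each of 4 groups, and groups were taken from the sample titles. The FPKM values are the authors' own and were deposited after trimming with fastp 1.0.1, alignment by HISAT2 2.2.1 (mm39) and gene counting by featureCounts 2.0.6. The annotation release, the strand setting and the library total behind FPKM are not given in the sources used here. The total implied by the values was 0.937 to 1.06 times the reads on genes, and the reason was not tested. FPKM times gene length gave whole reads for 100% of values (tolerance 0.01).

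The test was run on log2(FPKM + 1), which understates changes of low genes, with limma 3.58.1 (R 4.3.3). It took the 11818 genes that reached 1 FPKM in 2 or more libraries. One fit of all 8 libraries had a mean per group, a trended empirical Bayes step, 4 residual and 3.34 prior degrees of freedom, Benjamini-Hochberg adjustment over all genes and a threshold of 0.05. It was also run on simulated data with the same spread between clones in every group, which cannot check the sharing of the spread over groups. An exact permutation of 2 against 2 clones cannot go below a two-sided p of 0.333. Within groups, clones differed beyond read sampling (chi-square per gene 7.21 to 30.0), and nothing says that the p-values cover more than the spread between these clones. Alternatives were another pseudocount, filter, empirical Bayes step, scaling or sample set, voom on the recovered reads, a replicate block and leaving out each library.

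Members and gene lists were chosen with earlier results of these data known. Named genes were the members, Slc2a1, Slc2a3 and Jak2, called genes of 11 lists by size of change (about 4 for each list and comparison) and the 5 most and least like Txnip. Of these, 1 gene, and a transgene that all groups share, are not reported here. Genes in the paragraphs on neighbours and half-site pairs were chosen after their values were seen. RefSeq start windows (GRCm38.p6) were placed on GRCm39 by exact match. Figures were drawn with Python 3.11.15 and matplotlib 3.10.9.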

Additional observations from a re-analysis of the deposited data

Results flagged for a closer look

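The response to GLUT1/3 loss differed between the Jak2V617F and Jak2WT backgrounds by a test of the difference itself for Txnip (1.51 on the log2(FPKM + 1) scale, limma adjusted p = 0.0195). Txnip fell in Jak2WT and less in Jak2V617F, where its difference (−0.57) was not called. The response differed in the same direction for Mxd3 (1.51, adjusted p = 0.00881) and Klf10 (2.02, adjusted p = 0.0116). The difference was negative, a deeper fall in Jak2V617F, for Gpi1 (−0.72, adjusted p = 0.0314), Hk2 (−0.71, adjusted p = 0.0270) and Pgm1 (−0.69, adjusted p = 0.0266). It was negative as well for Itch (−0.39, adjusted p = 0.0467) and Prkab2 (−0.69, adjusted p = 0.0454), which fell in Jak2V617F and were not called in Jak2WT. Without a filter on low values the adjusted p was 0.0769 for Txnip, 0.0686 for Hk2, 0.0871 for Gpi1 and 0.0652 for Pgm1. It was 0.0501 for Itch and 0.122 for Prkab2, whose calls were lost in 14 of 17 alternatives. Each call in this paragraph was also lost when certain single clones were left out. Groups of 2 clones are too small to be searched for single outlying libraries.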

How the results depend on the processing

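For 74 differences of members and named genes, 1321 refits under up to 18 alternatives kept direction and side of the threshold in 1152 cases, lost the call in 130, gained one in 16 and changed sign in 23, the last all for differences of Mlx and Mlxip that had not passed. Txnip in Jak2V617F dKO (−0.57) passed when only the groups compared were fitted (adjusted p = 0.0322) and with the replicate block (−0.57, 0.0278), and ranged from −0.69 to −0.45 with 1 library left out. The difference between its dKO effects was 1.51 without a filter (adjusted p = 0.0769) and 1.21 to 1.82 with 1 library left out, and its difference between dKO clones of the backgrounds 0.12 to 0.73. Mlxip in Jak2V617F dKO was 0.082 with libraries scaled to the same total, 0.025 by median ratio, 0.10 by voom, and −0.17 to 0.17 with 1 library left out. Mlx between the backgrounds was −0.13 with the same total, −0.090 by voom and −0.044 to 0.074 with 1 left out among GLUT1/3 WT clones, and 0.034 with the same total, 0.042 by voom, 0.024 by median ratio and −0.036 to 0.030 with 1 left out among dKO clones. Its difference between dKO effects was 0.16 with the same total, 0.020 by median ratio, 0.13 by voom and −0.078 to 0.041 with 1 left out. For Mlxip the ranges with 1 left out were −0.33 to 0.012 between dKO clones and −0.077 to 0.26 for the difference between dKO effects.

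The number of the 4 tested members called moved with the settings and with 1 library left out, as did the number over all genes. Between backgrounds with intact transporters it was 2 under the same total, voom and the fit of only the groups compared. Over all genes 4157 of 11839, 4054 of 11818 and 3537 of 11247 were then called, against 3577 of 11818 in the main fit. For the difference between the dKO effects the number of members called was 0 without a filter and 2 with the same total and with voom. Over all genes 346 of 25788, 1573 of 11839 and 1896 of 11818 were then called, against 1256 of 11818 in the main fit.

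The same total moved the median of all genes by −0.13 between the backgrounds with intact transporters and by 0.16 for the difference between the dKO effects. It changed the calls in Jak2WT dKO from 901 higher and 716 lower to 706 and 1378, in Jak2V617F dKO from 1614 and 1919 to 2189 and 1450, between backgrounds with intact transporters from 1812 and 1765 to 1225 and 2932, and for the difference between the dKO effects from 558 and 698 to 1179 and 394. Voom called 2605 genes in Jak2WT dKO and 3961 in Jak2V617F dKO. Leaving out 1 library of a group assumes that the lone clone varies like the other groups; in Jak2WT dKO 106 to 275 genes were then called when 1 of the 4 clones compared was left out, and the cause was not tested.

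Clone numbers did not pair the libraries: same-numbered clones' deviations from their group means correlated between −0.254 and 0.152, above 0.1 in 1 of 6 pairs of groups. With the replicate block, 2 of the 4 tested members were called in Jak2V617F dKO, where 3226 of all 11818 genes were. Arrdc3 in Jak2WT dKO was then not called (−0.53, adjusted p = 0.0605).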

Other observations

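Of all genes, 26 carried a half-site pair with 5 bases between the sites in a RefSeq start window, as Txnip did, and 25 of them were in the deposited table. Of these, 12 were tested. In Jak2WT dKO Txnip was the only one called, lower (6.06% of all genes were), with a median of 0.04 over the 12 beside 0.01 over all genes. In Jak2V617F dKO 3 were higher and 2 lower, with a median of −0.08 beside −0.02, where 29.9% of all genes were called, 13.7% higher and 16.2% lower. Fnip1, a partner of the folliculin tumour suppressor, was lower by −0.69 (adjusted p = 0.00474) and Crybg3 higher by 0.69 (adjusted p = 0.0104), the latter 1.57 with voom on the recovered reads and not called when only the 2 groups compared were fitted (0.0617). Between the backgrounds with intact transporters 2 were higher and 3 lower, where 30.3% of all genes were called. The set was formed after the values were seen and no test was run on it.

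The nearest gene beyond Txnip at higher coordinates with at least 1 FPKM in at least 2 libraries was Polr3gl, a subunit of RNA polymerase III 16.0 kb away. It ranged from 14.7 to 17.7 FPKM in the 8 libraries and was called in none of the 4 comparisons. On the other side the nearest was Gm21960, 144.6 kb away, at 0.449 to 1.91 FPKM and also without a call.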
